A study of Mus musculus with 78 samples.

Results

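CpG-poor 1 kb bins with low methylation were described in the epiblast of Tet1/2 double knockout mouse embryos at embryonic day 6.5 (E6.5). They were chosen on their measured methylation: autosomal bins of 1 kb with at most 20 listed CpGs, at least 5 of them with reads, at least 15 reads, and under 20% of the reads methylated. This rule held for 3290 of the 1029520 CpG-poor bins with enough reads, which is 0.32%. The other 1026230 measured CpG-poor bins were at 20% or above, and 1225231 CpG-poor bins had too few reads to be placed on either side. "Dense" here means over 20 listed CpGs, and "low" means under 20% methylated by the same minimums. Of 102316 measured dense bins, 21075 (20.6%) were low, so the CpG-poor bins made up 13.5% of the 24365 low bins.

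In mammals most CpGs carry a methyl group, placed by DNMT3A and DNMT3B around implantation and copied at division by DNMT1. CpG islands, the CpG-dense stretches at many gene starts, stay free of it, whereas CpG-poor DNA is methylated nearly throughout, apart from sites held by transcription factors. TET enzymes oxidise 5-methylcytosine and so open a path to its removal, and TET1 and TET2 are both known in cells of the early embryo.

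Methylation was measured by STEM-seq, a bisulfite method for small cell numbers that reads methylated and unmethylated copies of each CpG. The knockout embryos came from matings between mice heterozygous for Tet1 (B6;129S4-Tet1tm1.1Jae/J) and homozygous for the loss of Tet2 (B6;129S-Tet2tm1.1Iaai/J), and carry the strain label C57BL/6N x DBA. Only the embryonic region was taken, and the extraembryonic region of the same embryos served for genotyping. Both deletions are present throughout the animal, and the number of embryos in a library is not given in the sources used here. The authors merged the 3 libraries into 1 table, so no spread between embryos can be given, no methylation table of embryos with intact Tet genes was used here, and loss of Tet1 and Tet2 could not be checked because no RNA from these embryos was used. Expression came from RNA-seq of E6.5 epiblast and, as the tissue compared with it, E6.5 visceral endoderm, 2 libraries each, from embryos of C57BL/6N mothers and DBA/2N fathers with intact Tet genes.

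The table listed 20364700 autosomal CpGs with a mean of 2.34 reads each, and 81.2% of all autosomal reads were methylated. The CpG-poor low bins had a median of 14 listed CpGs, 11 with reads, and a median of 30 reads, with 547 of the 3290 bins under 20 reads. By the rule their levels ran from 0 to 19.9%, with a median of 11.1%, against a median of 88.6% in the other CpG-poor bins. At 0% stood 394 bins. The bins formed no separate peak: 987 lay from 15% to under 20%, and 1310 CpG-poor bins lay in the next 5 points above the threshold. Nearest below it were bins such as chr5:7277001-7278000 (22 of 111 reads methylated, 19.8%) and chr2:32821001-32822000 (14 of 71, 19.7%), and nearest above it chr5:136593001-136594000 (15 of 75, 20%) and chr13:34093001-34094000 (12 of 60, 20%), whose 95% Wilson intervals all ran past both sides of 20%. Read numbers are sums over CpGs, so a read that covers several CpGs is counted at each. Such counts are not independent, so the intervals of levels are too narrow even for counting error. They take in no spread between embryos. All bin positions are on mm9.

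The share of CpG-poor bins that were low climbed with the number of listed CpGs. It was 0.0866% among bins of 5 to 7 CpGs, 0.305% among bins of 11 to 13, and 1.18% among bins of 17 to 20, and no 2 of the 5 classes had overlapping intervals. It also climbed with the reads counted in the bin, from 0.212% at 15 to 19 reads to 1.03% at 60 to 99. Of the 777 bins with 100 reads or more, 9.91% were low. CpG number and read count move together, since a bin with more CpGs collects more counts, and their parts were not separated. Per listed CpG the low bins were not deeper, with a median of 2.31 reads against 2.71 in the other CpG-poor bins.

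**Figure D1:**
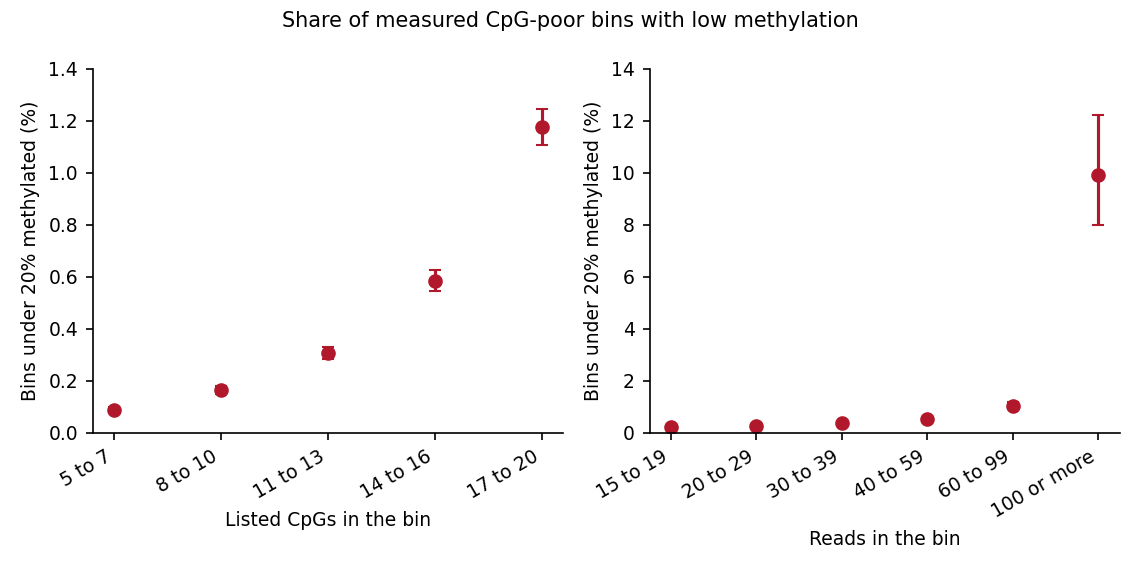
Percent of measured CpG-poor bins under 20% methylated (y axis) by listed CpGs in the bin (left, 5 classes) and by reads in the bin (right, 6 classes), with 95% Wilson intervals as bars. The share climbs from 0.0866% to 1.18% with CpG number, and reaches 9.91% in bins of 100 reads or more.

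The deepest bins need separate mention. Among CpG-poor bins, 201 were deeper than 10 times the autosomal mean per listed CpG, and 36 of them (17.9%) were low. These 36 bins held 58.8% of all reads in the 3290 bins. Among the deepest were 5 adjacent bins at chr1:24618001-24623000, with 12475 to 19274 reads each and 745 of 84338 reads methylated (0.883%). Another was chr2:22444001-22445000, with 93 of 17507 methylated (0.531%). Bins 1 kb beyond the chr1 run had 16 and 11 reads. No gene start was placed within 20 kb of either stretch, and what makes them deep was not tested. Without the deep bins 3254 bins remained, and the shares given below moved by under 1 percentage point.

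Seen against their surroundings, the bins fell into 2 main settings. A dense low bin lay directly beside 1354 of the 3290 bins (41.2%), against 1.45% of the other CpG-poor bins. No other measured low bin lay within 5 kb of 1204 (36.6%), against 91.97% of the other CpG-poor bins. The remaining 732 (22.2%) had a low bin near but no dense one beside them. Bins with too few reads could not count as low. At 1 kb on the 2 sides, 777 and 802 of the 1204 had a measured neighbour. For the 1026230 other CpG-poor bins these numbers were 613020 and 612896. Some lone bins may thus have a low neighbour that was not measured. Of CpG-poor bins that border a dense low bin, 8.32% were themselves low, whereas 0.127% of those with no low bin within 5 kb were. Another CpG-poor low bin was adjacent in 530 cases (16.1%).

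The setting fixes part of what lies around a bin, so levels of the neighbours are given as a description. Around bins beside a dense low bin, neighbours at 1 kb on the 2 sides had median levels of 7.25% and 7.52%, those at 2 kb 27.7% and 26.9%, and those at 3 kb 58.8% and 57.1%. Around lone bins, where by choice no measured bin within 5 kb was under 20%, medians were 71.1% and 71.4% at 1 kb and 85.7% and 85.3% at 2 kb, close to the 88.4% of the neighbours of the other CpG-poor bins at that distance. At 1 kb the neighbours of the other CpG-poor bins stood at 88.6% on both sides.

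**Figure D2:**
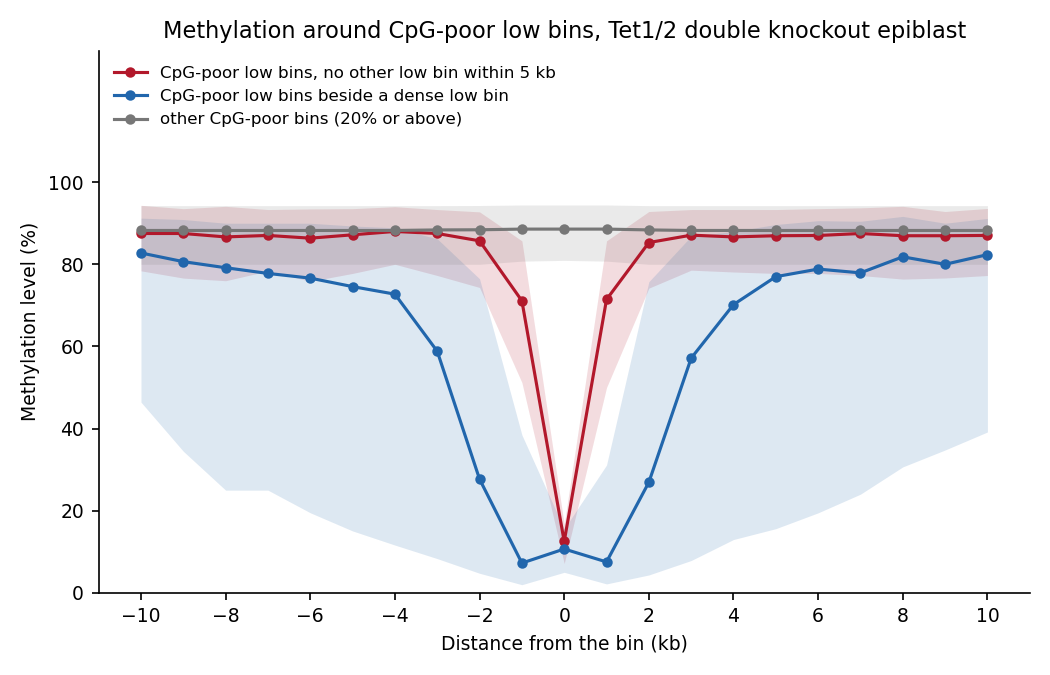
Median methylation level (y axis, percent; shading, lower to upper quartile over bins) of bins at -10 to 10 kb (x axis) from CpG-poor low bins alone within 5 kb, CpG-poor low bins beside a dense low bin, and other CpG-poor bins. Neighbours of lone bins, which by choice are not under 20% within 5 kb, have medians of 85.7% and 85.3% at 2 kb, and those of bins beside a dense low bin 58.8% and 57.1% at 3 kb.

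Inside the bins that border a dense low bin on 1 side (1219), methylation followed the distance from the shared edge. Of reads on CpGs in the nearest 100 bases 4.11% were methylated, at 400 to 499 bases 13.7%, and in the farthest 100 bases 26.1%. CpGs were packed towards the same edge, with 68% of them in the nearer 500 bases and 19.8% in the first 100. The levels pool the reads of all these bins. Whether a low stretch ran unbroken across the edge in each place was not tested. When the edges were moved by 500 bases, 76.3% of all 3290 bins overlapped a low bin. That share was 98.7% for bins beside a dense low bin and 50.1% for lone bins. A moved bin takes in part of its neighbour, and the settings are defined by what lies near the bin. How much of the difference comes from this was not tested.

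**Figure D3:**
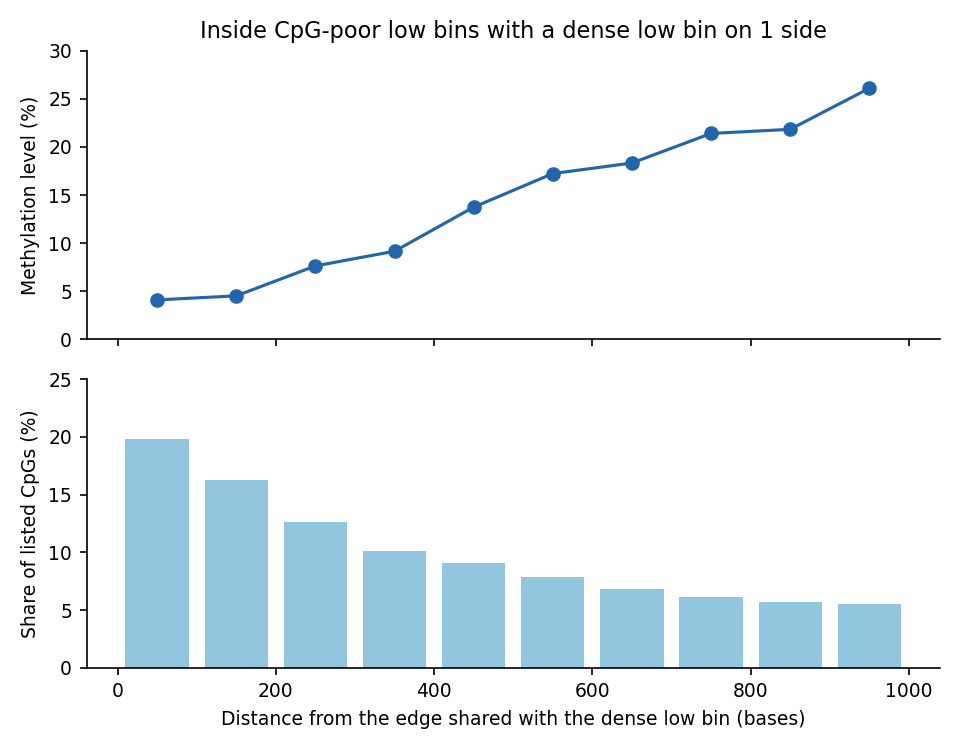
Methylation level (upper panel, percent of reads on the CpGs of each 100-base step) and share of listed CpGs (lower panel, percent) by distance in bases from the edge shared with a dense low bin, over 1219 CpG-poor low bins. The level is 4.11% in the first 100 bases and 26.1% in the last, while the share of CpGs drops from 19.8% to 5.51%.

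Within the bin, CpGs of all members were somewhat more bunched than in other CpG-poor bins with as many CpGs. Among bins of 17 to 20 CpGs the fullest 300 bases held a median of 10 CpGs in low bins and 9 in the others, and among bins of 8 to 10 they held 6 and 5. Of the 37317 CpGs with reads in low bins, 6800 had at least 5 reads. Of these 6800, 66.9% had no methylated read and 1.74% were at 80% or above. Another 14.2% lay between 20% and 80%. The bins were chosen on these same reads, so the shares follow in part from the rule.

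The 2 strand columns of the table give a measure that the choice need not use. When bins were chosen by the same rule on Crick reads alone, 2113 qualified, and 1911 of them had at least 5 Watson reads. Their Watson level had a median of 20.8%, with 47.5% of bins under 20% and 17.2% over 50%, whereas bins not chosen had a median of 90.0%. Choosing on Watson reads gave 2126 bins, a Crick median of 20.0% in the 1907 with reads, and 48.1% under 20%, against a median of 89.7% in bins not chosen. The strand left out was thus far below the genome's level but higher than the strand that chose. Only 1419 of the 2113 and 1406 of the 2126 were among the CpG-poor low bins described above. The settings that follow are thus those of bins chosen on a single strand. Lone bins among them showed the larger gap, with medians of 28.6% and 30% on the strand left out. Of these lone bins 26.6% and 29.1% were over 50% there. In bins beside a dense low bin the medians were 18.2% and 17.2%, and 9.63% and 11.2% were over 50%. Among bins chosen on a single strand, a larger part of the lone ones was thus over 50% methylated on the strand left out. The same was not measured for the lone bins described above.

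**Figure D4:**
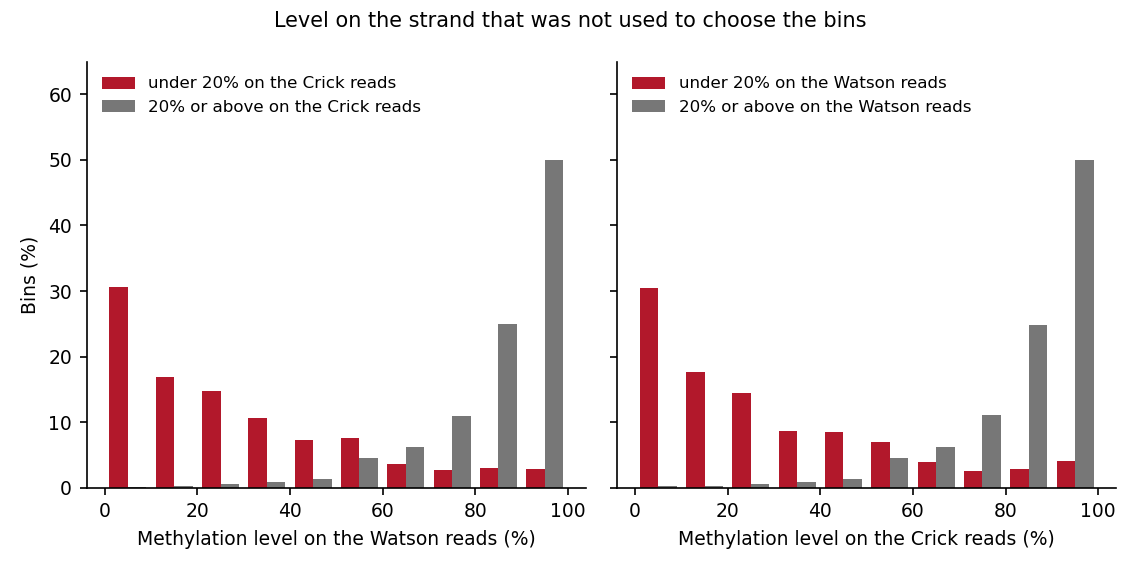
Methylation level on the strand not used to choose the bins (x axis, percent) against the percent of bins (y axis), for CpG-poor bins under 20% on the strand used and for those at 20% or above; left, chosen on Crick reads, right, on Watson reads. In the lowest step, 0 to 10%, lie 30.7% and 30.4% of the chosen bins, against 0.186% and 0.204% of those not chosen.

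Where the bins lay was uneven. Their share ran from 0.160% of measured CpG-poor bins on chromosome 16 to 0.413% on chromosome 11. Of 2417 windows of 1 Mb with a measured CpG-poor bin, 1320 held at least 1 low one, with a median of 2, and the 10 fullest windows held 193 bins (5.87%). All 4 Hox clusters, whose homeobox genes pattern the body axis, were among the 8 fullest. The window at chr15:102000001-103000000, with Hoxc, held 35 bins, that at chr11:96000001-97000000, with Hoxb, held 31, that at chr6:52000001-53000000, with Hoxa, held 23, and that at chr2:74000001-75000000, with Hoxd and Evx2, held 14. The others of the 8 were chr13:23000001-24000000 with 19, which holds histone genes such as H4c4 and H2bc6, chr5:120000001-121000000 with 17 around Tbx3os1, chr1:19000001-20000000 with 16 around the transcription factor genes Tfap2b and Tfap2d, and chr7:77000001-78000000 with 14. Lone bins made up 0 of 35 in the Hoxc window and 1 of 31 in the Hoxb window.

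Most bins stood singly: 2760 had no CpG-poor low bin adjacent, and 196 pairs, 31 triplets and 9 longer runs held the rest. The longest runs reached 6 kb, and there were 4 of them. At chr7:138689001-138695000 the run held 85 CpGs with 16 of 184 reads methylated (8.70%) and lay between the starts of Hmx3 and Hmx2, homeobox genes of the developing inner ear, 2524 and 2807 bases from them, inside a low stretch of 16 kb. The run at chr13:99129001-99135000 (20 of 201 reads, 9.95%) began 4801 bases from the start of Foxd1, a forkhead factor gene. That at chr13:40806001-40812000 (20 of 190, 10.5%) ended 17164 bases from the start of Tfap2a, a factor of neural crest and skin. The run at chr12:50478001-50484000 had 14 of 176 reads methylated (7.95%). A run of 4 kb at chr4:139390001-139394000 (8 of 86, 9.30%) joined the dense low bins at the start of Pax7, a paired-box factor gene.

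Single bins with many reads differed by setting in where those reads lay. Among lone bins under the depth limit, chr6:124589001-124590000 had the most reads, with 46 of 339 methylated (13.6%), followed by chr3:51932001-51933000 with 50 of 265 (18.9%). In both, nearly all counts fell in a stretch of 100 bases, where a read is counted at each CpG it covers. On chromosome 6 that stretch held 12 evenly spaced CpGs, from base 124589272 to 124589316, with 25 to 28 reads each. Of their 321 counts 30 were methylated (9.35%), and of 18 in the rest of the bin 16 were. On chromosome 3 it held 11 evenly spaced CpGs, from base 51932857 to 51932907, with 9 to 28 reads each. Of their 250 counts 35 were methylated (14%), and all 15 in the rest of the bin were. CpGs with reads outside the stretches had 1 to 6 reads each. What the even spacing comes from was not tested. At chr7:108542001-108543000, 7961 bases from a start of Arap1, 29 of 250 reads were methylated (11.6%). Of these counts, 17 of 225 were methylated in the fullest 100 bases and 12 of 25 outside them. In the 6 lone bins with the most reads under the depth limit, the fullest 100 bases took 90% to 95.6% of the counts. Their level thus describes 100 bases and not the bin, whose other CpGs ran from 48% to 100% methylated. Over all lone bins the median share of counts in the fullest 100 bases was 50%. Of the 1204 lone bins 151 (12.5%) had 80% or more there, against 33 of 1354 bins beside a dense low bin (2.44%). These shares also rise where CpGs are bunched, since a read is counted at each CpG. When each CpG counted equally, whatever its reads, 2627 of the 3290 bins were still under 20%. Bins beside a dense low bin had fewer reads at their top. At chr11:94188001-94189000, next to the start of Ankrd40, 17 of 120 reads were methylated (14.2%), 0 of 86 in the fullest 100 bases and 17 of 34 outside them, and the dense neighbour with 81 CpGs was at 7.22%. At chr17:53705001-53706000, beside the start of the histone acetyltransferase gene Kat2b, the level was 16.9% (15 of 89 reads), with 72.7% on the far side and 0 of 25 reads methylated in the dense neighbour.

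Gene starts were found by matching the CpG spacing of RefSeq promoter windows to the CpG positions of the table, since no mm9 genome was used. Of 19582 windows with at least 5 CpGs, 98.8% had exactly 1 place on their own chromosome, and 0.449% had a place on another chromosome. Chromosome 18 had no windows here. A start of 147 gene symbols lay in 146 CpG-poor low bins, which is 4.601% of the 3173 low bins on the other 18 autosomes. The same share was 0.318% in the other CpG-poor bins and 42.7% in dense low bins. Seen from the genes, 4.43% of the 3292 CpG-poor bins with a start were low. Windows with under 5 CpGs could not be placed, so starts in the poorest bins are missed. This falls unequally, since bins of 5 to 7 CpGs were 271219 of the 1026230 other CpG-poor bins but 235 of the 3290 low ones. The shares with a start were not matched on CpG number.

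Of the 146 bins with a start, 69 were lone, 54 lay beside a dense low bin and 23 were in neither setting. Median distance to the nearest placed start was 33.8 kb for lone bins, 2.51 kb for bins beside a dense low bin and 54.2 kb for the other CpG-poor bins. Where the bin bordered a dense low bin, 25 of 60 starts (41.7%) lay within 100 bases of the shared edge. Reads on the promoter windows themselves were methylated in 5.35% of 2881 cases, and 60 of the 113 windows with at least 10 reads had none methylated. Since the bins were chosen for few methylated reads, a low level here follows in part from the rule. Windows of starts near an edge also take in CpGs of the neighbouring bin, so these levels are not those of the bins alone.

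Sequences of the 250 bases before the start are given for the 3 genes called with the largest difference on the log2(FPKM + 1) scale in each direction between E6.5 epiblast and E6.5 visceral endoderm (below), since they show how few CpGs these starts carry. They are RefSeq sequences of GRCm38.p6 with positions on that build, written 5′ to 3′ on the gene's strand, and capitals mark the CpGs.
Gng2, chr14:19976694-19976943, minus strand: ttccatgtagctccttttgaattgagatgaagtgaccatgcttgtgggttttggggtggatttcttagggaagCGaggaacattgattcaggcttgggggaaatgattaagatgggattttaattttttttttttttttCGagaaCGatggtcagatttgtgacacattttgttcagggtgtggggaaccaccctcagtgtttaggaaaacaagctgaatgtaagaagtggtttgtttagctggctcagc
Lin28b, chr10:45470202-45470451, minus strand: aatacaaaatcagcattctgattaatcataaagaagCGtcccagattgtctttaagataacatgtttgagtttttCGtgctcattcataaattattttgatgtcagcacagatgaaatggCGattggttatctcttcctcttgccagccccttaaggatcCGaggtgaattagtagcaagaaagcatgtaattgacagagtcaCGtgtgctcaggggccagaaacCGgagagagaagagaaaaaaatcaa
Ankrd6, chr4:32923506-32923755, minus strand: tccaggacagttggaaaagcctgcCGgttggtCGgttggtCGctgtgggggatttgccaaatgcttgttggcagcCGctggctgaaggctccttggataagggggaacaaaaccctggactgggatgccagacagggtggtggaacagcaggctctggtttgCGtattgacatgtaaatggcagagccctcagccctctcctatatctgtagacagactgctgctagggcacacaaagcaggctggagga
Flrt3, chr2:140671477-140671726, minus strand: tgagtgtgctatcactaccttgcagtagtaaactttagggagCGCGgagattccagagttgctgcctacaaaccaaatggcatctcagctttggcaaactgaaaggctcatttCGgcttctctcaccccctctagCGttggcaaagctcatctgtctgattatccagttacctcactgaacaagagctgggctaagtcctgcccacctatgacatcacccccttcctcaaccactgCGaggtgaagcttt
Apoe, chr7:19698399-19698648, minus strand: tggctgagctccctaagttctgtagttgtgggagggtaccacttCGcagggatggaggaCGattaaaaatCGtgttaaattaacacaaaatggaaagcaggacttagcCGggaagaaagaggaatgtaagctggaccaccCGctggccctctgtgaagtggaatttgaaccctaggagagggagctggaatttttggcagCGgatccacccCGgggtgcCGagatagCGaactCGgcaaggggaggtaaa
Zfp948, chr17:21566728-21566977, plus strand: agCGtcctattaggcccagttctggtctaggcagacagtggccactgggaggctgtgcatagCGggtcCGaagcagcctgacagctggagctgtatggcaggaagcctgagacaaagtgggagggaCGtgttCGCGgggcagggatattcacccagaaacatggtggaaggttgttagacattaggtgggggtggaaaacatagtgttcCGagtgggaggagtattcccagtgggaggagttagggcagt

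The 6 stretches hold 3 to 10 CpGs each. All 10 CpGs before the start of Apoe had 4 to 7 reads, and 0 of 49 reads were methylated. At Lin28b 1 of 23 reads was methylated over 6 CpGs, at the CpG 90 bases before the start. The 3 CpGs before the Gng2 start lie just past the edge of the low bin that holds the start, and 0 of 6 reads there were methylated. Ankrd6 had 0 of 6 over 5 CpGs and Zfp948 0 of 5 over the 3 of its 7 CpGs that had reads. At Flrt3 2 of 7 reads were methylated, at the CpGs 208 and 14 bases before the start, so the depth at these last 3 promoters and at Gng2 allows little to be said of them.

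Short motifs were counted on both strands of the 300-base windows (250 bases before the start to 50 after), with no regard to overlaps. CCAAT occurred in 45.7% of the 164 windows of low bins, 34.0% of those of other CpG-poor bins, 36.9% of those of dense low bins and 35.6% of all placed windows. CCGGAAG, a form bound by ETS factors, occurred in 12.8%, 4.81%, 18.3% and 13.9% in the same order. TATAAA was found in 8.54%, 12.7%, 5.62% and 7.65%, and GCGCATGC, the core bound by NRF1, in 3.05%, 1.16%, 5.54% and 4.29%. For 3 of these 4 motifs the low CpG-poor starts thus stood between the other CpG-poor starts and the dense low starts. Dense windows hold more CpGs, a median of 24 against 7 in the CpG-poor low windows and 6 in the other CpG-poor windows, and no adjustment was made for that number.

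Of the 147 symbols, 97 were found in the expression table, 10 of them under an older symbol. In E6.5 epiblast 55 of the 97 (56.7%) reached 1 FPKM, with a median of 1.66 FPKM. Genes with a start in other CpG-poor bins reached it in 22.5% of cases (median 0.0327 FPKM), those with a start in dense low bins in 71.8% (5.13 FPKM), and all genes of the table in 43.3% (0.384 FPKM). Some genes have a further start elsewhere, 18 of the 147 in a dense low bin. Counting only genes without a measured start in another class, the shares were 51.4%, 13.8% and 72.4% in the same order, so the ranking did not rest on them. By setting, 26 of 49 genes at lone bins, 19 of 36 at bins beside a dense low bin and 10 of 12 at the remaining bins reached 1 FPKM. This is a description of starts in embryos with intact Tet genes, set beside methylation in embryos without Tet1 and Tet2.

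The highest epiblast level at these starts was that of Mrpl20, a protein of the mitochondrial ribosome, which had 344 and 367 FPKM in epiblast and 291 and 275 FPKM in visceral endoderm. Its start lies in chr4:155176001-155177000, where 5 of 34 reads were methylated (14.7%), and its window had 0 of 26. Ptpa, the activator of protein phosphatase PP2A, had 68.7 and 61.5 FPKM in epiblast, with a lone bin at 19.2% (10 of 52 reads). Xrcc5, which encodes the Ku80 subunit of DNA end joining, had 69.1 and 58.1 FPKM and a bin at 10.8%. Aqr, a helicase of the spliceosome, had 42.7 ± 8.16 FPKM in epiblast (SD, n = 2). Thg1l, which adds a guanosine to histidine tRNA, had 41.01 ± 1.93 FPKM, and Supt20, a subunit of the SAGA complex, 29.03 ± 3.79 FPKM (SD, n = 2 each). Apoe (87.3 FPKM) stood between Mrpl20 and Ptpa, and Zmynd8 (36.8 FPKM) between Thg1l and Supt20, and both are taken up below. Apoe, Thg1l, Zmynd8 and Supt20 have a further start in a dense low bin, so their FPKM are not tied to the start in the CpG-poor bin. The log2 difference between epiblast and visceral endoderm was 0.33 for Mrpl20 (SE 0.22, adjusted p = 0.303, limma) and 0.09 for Xrcc5 (SE 0.34, adjusted p = 0.888, limma), and neither passed the test.

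Between the 2 tissues, 73 of the 97 genes passed the filter on low values and were tested. Epiblast was higher in 15 of the 73 and lower in 8 at an adjusted p under 0.05 and a log2 difference of at least 1, on the log2(FPKM + 1) scale. Over all 12874 genes tested, 9.42% were higher in epiblast and 12.2% lower. Among the 56 tested genes with no measured start in another class, 8 were higher (14.3%) and 7 lower (12.5%). The median log2 difference was 0.40 over the 73 genes and 0.07 over all genes tested. Since the filter keeps a gene that reaches 1 FPKM in any 2 of 22 libraries, the 24 genes left out were those with fewer than 2 libraries at that level. Marker genes match the labels: 8 epiblast markers summed to 1257 and 1282 FPKM in epiblast against 437 and 423 in visceral endoderm, and 9 visceral endoderm markers to 2.44 and 19.8 FPKM in epiblast against 6259 and 6956. Summed levels of 6 extraembryonic ectoderm markers were 11.1 and 17.1 FPKM in epiblast against 22.3 and 26.4, of 4 streak and mesoderm markers 47.1 and 52.3 against 110 and 172, and of 3 blood markers 0.254 and 0.671 against 5.62 and 5.01, with Hbb-bh1 at 0 in epiblast. The part of RNA carried over between the tissues in the differences below was not tested.

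The genes higher in epiblast included Gng2, Lin28b, Ankrd6 and Gstk1, the 4 with the largest difference on the log2(FPKM + 1) scale. With a pseudocount of 0.1 in place of 1 Ankrd6 stood first, at 4.10, and Gstk1 came after Dclk1, Pde4b and Foxp1. Lin28b, which blocks maturation of let-7 microRNAs and is a gene of early embryonic cells, had 13.5 and 10.2 FPKM in epiblast, against 1.45 and 0.550 in visceral endoderm. Both epiblast libraries lay far above both of visceral endoderm (log2 difference 2.71, SE 0.29, adjusted p = 1.06e-06, limma). Its start lies in chr10:45190001-45191000, with 7 of 36 reads methylated (19.4%, interval 9.75% to 35.03%) and 20 listed CpGs, so it is a bin at the very threshold, whereas its window had 1 of 25 reads methylated. Gng2, a gamma subunit of heterotrimeric G proteins, had 15.7 and 15.3 FPKM in epiblast and 1.94 and 0.659 FPKM in visceral endoderm (log2 difference 2.90, SE 0.29, adjusted p = 6.64e-07, limma), with a lone bin at 13.2%. Ankrd6, an ankyrin repeat protein of Wnt signalling, had 7.44 and 4.96 FPKM against 0.451 and 0.135. Gstk1, a glutathione transferase, had 13.2 and 13.5 FPKM in epiblast against 2.14 and 1.46, and all 13 CpGs of its window had reads, 0 of 22 of them methylated.

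Pde4b, a phosphodiesterase that breaks down cyclic AMP, was higher in epiblast by a log2 difference of 1.97, and the forkhead gene Foxp1 by 1.85. Dclk1, a microtubule-binding kinase, was higher by 1.77 and Zmynd8, a reader of histone marks, by 1.64. The bins of Foxp1, Dclk1 and Zmynd8 hold a start of genes that have a further start in a dense low bin, and those of Ankrd6 and Pde4b a start of genes with a further start in a dense methylated bin. The FPKM of a gene sums over its starts, so these 5 differences are not tied to the start in the CpG-poor bin. With a pseudocount of 0.1 the log2 difference was 4.01 for Dclk1, 3.27 for Foxp1 and 3.43 for Pde4b, over 1.5 times the values above. Of the 12 called genes at lone bins 9 were higher in epiblast, of the 6 at bins beside a dense low bin 2 were, and of the 5 at the remaining bins 4 were. Over all genes tested, 9.42% were called higher and 12.2% lower. Genes tested were not counted by setting, so these small counts do not compare the settings.

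The genes lower in epiblast were led by Flrt3 and Apoe, which had the largest differences in either direction. Apoe, a lipid carrier that visceral endoderm secretes in quantity, had 79.99 and 94.6 FPKM in epiblast, against 2550 and 3374 FPKM in visceral endoderm (log2 difference -5.06, SE 0.24, adjusted p = 3.50e-11, limma). Its bin chr7:20283001-20284000 had 5 of 79 reads methylated (6.33%) and borders a dense low bin that holds another Apoe start. Flrt3, a cell surface protein with leucine-rich repeats, had 1.79 and 1.85 FPKM in epiblast and 85.4 and 111 FPKM in visceral endoderm (log2 difference -5.12, SE 0.36, adjusted p = 6.49e-09, limma), although 7 of the 65 reads of its bin were methylated (10.8%) in knockout epiblast. Low levels at a start in knockout epiblast thus stood beside 1.79 FPKM at Flrt3 and 344 FPKM at Mrpl20 in epiblast with intact Tet genes. Zfp948, a zinc finger gene, had 2.56 and 2.79 FPKM in epiblast against 25.4 and 29.9 in visceral endoderm, and its lone bin had 1 of 19 reads methylated (5.26%).

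Lrrn4, another leucine-rich repeat membrane protein, was lower in epiblast, at 9.56 ± 1.29 FPKM against 52.9 ± 7.24 (SD, n = 2 each). Tmem79, a membrane protein of the trans-Golgi network, was lower by a log2 difference of -2.05, and Rin2, an exchange factor for RAB5, by -1.97. Vasn, which binds TGF-beta, stood at -1.56, and Fkbp14, a prolyl isomerase of the endoplasmic reticulum, at -1.36. With a pseudocount of 0.1 Rin2 stood at -3.22 and Fkbp14 at -2.26. The call of Fkbp14 was lost without E6.5 epiblast replicate 1 (adjusted p = 0.0533, limma) and without E6.5 visceral endoderm replicate 2 (adjusted p = 0.0679, limma), and that of Aqr, at 1.13, without E6.5 epiblast replicate 1 (adjusted p = 0.0577, limma).

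**Figure D5:**
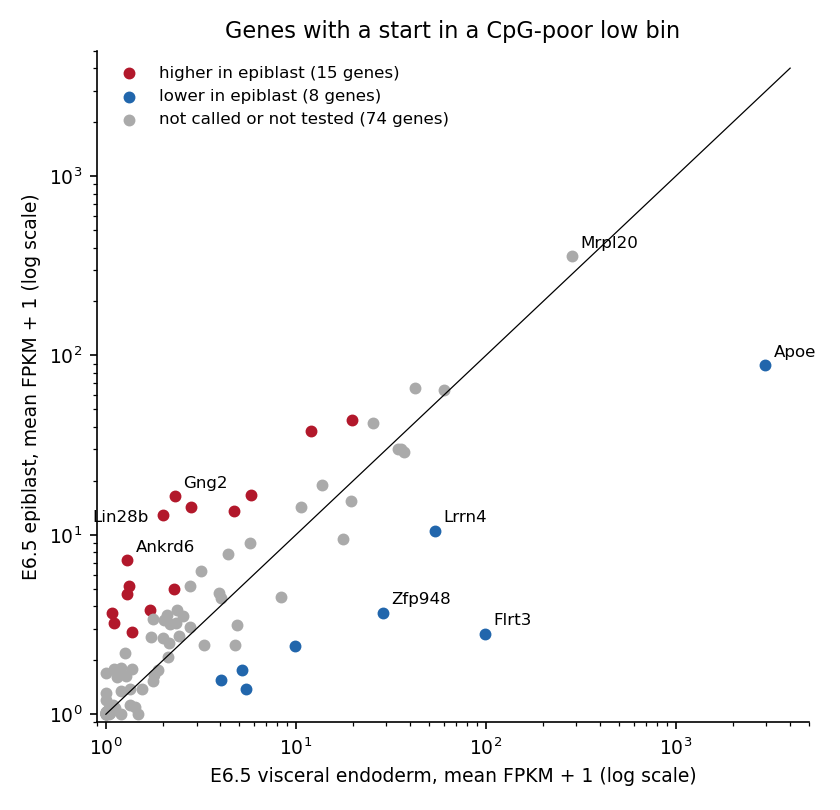
Mean FPKM + 1 of the 97 genes with a start in a CpG-poor low bin, in E6.5 epiblast (y axis) against E6.5 visceral endoderm (x axis), 2 libraries each, both axes logarithmic; the line marks equal levels. The 15 genes higher in epiblast and the 8 lower ones are coloured, with Gng2, Lin28b and Ankrd6 above the line and Apoe, Flrt3 and Zfp948 far below it.

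Across the 11 in vivo tissues from E3.5 to E7.5, the 97 genes reached 1 FPKM least often in the inner cell mass at E3.5 (32 genes, 33.0%) and most often in the primitive streak at E7.5 (65 genes, 67.0%). Over all genes of the table that share ran only from 39.4% to 45.8%. Fewer of the 97 than of all genes were at 1 FPKM in every tissue (20.6% against 29.1%), and fewer were in none (22.7% against 42.0%), so 55 genes were on in some tissues and not in others. Lin28b stood at 0.206 ± 0.243 FPKM in the inner cell mass at E3.5 and 8.52 ± 1.46 in epiblast at E5.5 (SD, n = 2 each), and at 11.8 FPKM in epiblast at E6.5, with 10.96, 11.02 and 11.5 FPKM in ectoderm, streak and mesoderm at E7.5. Flrt3 was low in epiblast at both days, at 1.10 FPKM at E5.5 and 1.82 at E6.5, and stood at 16.2 FPKM in ectoderm and 54.1 FPKM in endoderm at E7.5. These levels are means of 2 libraries and no test was made of their order.

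Over all 16237 placed symbols, 0.905% had a start in a CpG-poor low bin and 58.9% in a dense low bin, so lists of 5 to 13 placed genes cannot show a lack of starts in CpG-poor low bins. Of 13 placed pluripotency genes 1, Lin28b, had a start in a CpG-poor low bin and 10 in dense low bins. No placed gene of the lists for DNA methylation (0 of 11), the germline (0 of 13), visceral endoderm (0 of 5), streak and mesoderm (0 of 6) or housekeeping (0 of 5) had one. All 13 placed germline genes, which the early embryo is known to keep methylated, had their start in dense bins at 20% or above, and 10 of the 11 DNA methylation genes in dense low ones.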

How the data were processed

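Methylated and unmethylated read counts per CpG and strand were deposited by the authors as 1 table merged from 3 STEM-seq libraries, aligned with BS-Seeker2 to mm9 per the submitters' processing notes. FPKM per gene and library were deposited by the authors, made with TopHat2 2.0.11 and Cufflinks 2.0.2 per the same notes. PCR copies cannot be told apart in either. The bins and gene lists were chosen with earlier results of these data known. Counts of both strands were summed over the CpGs of 1 kb bins with Python 3.11.15, and Wilson 95% intervals given. A read over several CpGs counts at each, which the intervals of levels do not allow for. Promoter windows of 300 bases (RefSeq, GRCm38.p6) were placed where the table's CpGs repeat their spacing exactly and uniquely on the same chromosome, and windows with a place on another chromosome were left out. Expression was tested with limma 3.58.1 on log2(FPKM + 1) in a fit of 11 groups and 22 libraries (11 residual degrees of freedom), over the 12874 genes that reached 1 FPKM in any 2 libraries, with Benjamini-Hochberg adjustment. FPKM carry no read depth, and sums per library ran from 434341 to 460161. Gene symbols that had turned into dates (27) were left out. Nothing in the labels says whether replicates came from separate embryos, so p-values measure the spread between these libraries. On simulated data limma recovered 21% of 2-fold and 83% of 4-fold changes. A 2-fold change lies at the log2 limit of the call itself. Changes were planted only in well-expressed genes, so recovery at lower FPKM was not measured. Named bins are those with the most reads in each setting under 10 times the mean depth, the longest runs and those nearest the threshold. Named genes have the highest epiblast FPKM or the largest called folds; symbols beginning Gm, Mir, Snor, LOC, AI or BC or ending Rik were passed over. Alternatives changed the threshold, the minimums, the bin edges, the strand, the pseudocount, the filter, the samples fitted and the replicates.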

Additional observations from a re-analysis of the deposited data

Results flagged for a closer look

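The autosomal rule left out the X chromosome. By the same rule 172 of 19331 measured CpG-poor bins of the X chromosome were low, 0.890% (Wilson 95% interval 0.767% to 1.03%), in data that none of the comparisons above use. Their median level was 11.4%, and 48.8% of them had no other low bin within 5 kb and 28.5% a dense low bin beside them. Depth on this chromosome was 1.37 reads per listed CpG, and 78.2% of its reads were methylated. No control table was used to set this against, and its cause was not tested.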

How the results depend on the processing

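The 3290 CpG-poor low bins became 1416 with a threshold of 10% and 6355 with 30%, 1720 with at least 30 reads, and 2126 and 2113 on Watson and Crick reads alone, of which 1406 and 1419 were among the 3290. The share with a dense low bin beside them (41.2%) was 38.1% at the 10% threshold, 44.1% with 30 reads and 44.2% with 8 CpGs. The share with no low bin within 5 kb (36.6%) was 39.9%, 34.9% and 34.2% under the same settings. Bins shifted by 500 bases, the mean of single CpG levels (3309 bins, 2627 shared) and leaving out deep bins moved none of these counts by over 1.5 times. The number of genes called between the tissues was 23. It was 29 with a pseudocount of 0.1, which also raised log2 differences of 6 named genes by over 1.5 times, 22 with no filter, and ran from 21 to 26 when each replicate was left out, with a lone library then taken to vary like the other groups. With the replicate number as a block it was 23; the numbers show no more than a shared label (correlation of deviations 0.110), and no named call changed. Of the 3290 bins 1570 had under 30 reads. With no replicate the intervals of levels cover counting error at most.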

Other observations

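Zinc finger genes were frequent among the starts, a pattern singled out after the values were seen and so given with no test. Symbols beginning with Zfp made up 13 of the 147 genes with a start in a CpG-poor low bin (8.84%), against 0.971% of genes with a start in other CpG-poor bins, 1.97% of those in dense low bins and 1.81% of all 16237 placed symbols. Many of these genes are related copies in clusters, so the 13 are not independent, and 4 of them lie on chromosome 17 and 3 on chromosome 13. In 11 of the 13 the bin was alone within 5 kb. Levels of their bins ran from 0 to 17.4%, with Zfp983 at 0 of 22 reads, Zfp759 at 1.79% of 56 reads and Zfp984 at 13 of 100 reads. Of the 11 in the expression table, 8 reached 1 FPKM in E6.5 epiblast, between 0.537 and 6.87 FPKM over all 11. Their products with KRAB domains are known to bind transposable elements and to bring in repressive histone marks.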
